A study of Rattus norvegicus with 10 samples.

Results

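Rat genes of the integrated stress response and the unfolded protein response were followed in primary oligodendrocyte precursor cells (OPCs) and oligodendrocytes (OLs), the myelin-forming cells that OPCs become. The set held 10 genes, Atf3, Atf4, Ddit3, Xbp1, Asns, Chac1, Trib3, Sesn2, Ddit4 and Hspa5, chosen by their symbols in the authors' table. Each was found under a single gene ID, so all 10 were among the 23487 genes with counts. RNA of 10 libraries had been sequenced, 2 for each of 5 groups. OLs were assayed 5 days after transfection (DD5), with a scrambled mimic (miR-ctl), a miR-145-5p mimic (miR-145), or the miR-145-5p and miR-219 mimics together (miR-145+miR-219). OPCs were assayed 24 h after transfection with a miR-145-5p inhibitor (anti-miR-145) or a scrambled inhibitor (anti-miR-ctl). The study's methods give 30 nM for the miR-145-5p mimic and inhibitor and for their scrambled controls. They do not name the miR-219 mimic or the total dose of both mimics together. All groups had been transfected, so no untransfected cells were measured here. The study's methods name lentivirus for its sequenced cells, but its Results and the labels name mimics, which are followed here. All cells came from cortices of Sprague-Dawley pups aged P1 to P3, and both control groups shared this origin. OPC medium held the growth factors FGF2 and PDGFAA, and OL medium held triiodothyronine, CNTF and N-acetyl cysteine.

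The integrated stress response begins with kinases that phosphorylate the translation factor eIF2 when amino acids run short, when double-stranded RNA is present, when haem is lacking or when unfolded proteins gather in the endoplasmic reticulum (ER). General protein synthesis then falls, while translation of Atf4 mRNA rises, and the ATF4 protein switches on genes for amino acid supply, glutathione turnover and, under lasting stress, cell death. The unfolded protein response adds 2 further ER sensors, ATF6 and IRE1 (encoded by Ern1). They act through ATF6 itself and through spliced Xbp1 mRNA to raise chaperones such as Hspa5. OLs make large amounts of membrane protein and lipid, and are known to be sensitive to disturbance of this pathway. Gene counts show neither ATF4 translation nor Xbp1 splicing.

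The oligonucleotides are best seen by their seed, bases 2 to 8 of a mature miRNA, which pairs with target mRNAs and is shown in capitals here. The protocol states that the miR-145-5p mimic has the mature sequence, which lies at chr18:57370033-57370055 on the minus strand of GRCr8. Of the miR-219 mimic the arm was not given in the sources used here; the 5p arm of miR-219a is printed, from chr3:33516561-33516581, minus strand. Both sequences are RefSeq's.
rno-miR-145-5p: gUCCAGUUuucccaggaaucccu
rno-miR-219a-5p: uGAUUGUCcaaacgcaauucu

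RefSeq promoters on GRCr8 were at hand for 9 of the 10 genes, Atf3 being the exception, as windows of 300 bases from 250 before to 50 after the start of the gene. They were searched on both strands for 4 elements known from this pathway. The ER stress response element, CCAAT and CCACG with 9 bases between them, was found in Hspa5, 43 to 25 bases before the start, and in Xbp1, 65 to 47 bases before it. Of all 33469 rat promoters, 22 (0.0657%) held it. The core of the C/EBP-ATF response element (CARE), the kind of site that ATF4 binds, was searched as TGATGNAA. It was found on the opposite strand in Chac1 (167 to 160 bases before the start) and Trib3 (21 to 14 bases before it), and in 3.98% of all promoters. Neither the cyclic AMP response element TGACGTCA (1.83% of all promoters) nor the unfolded protein response element core TGACGTGG (0.595%) was found in any of the 9 windows. No found elements overlapped each other. A match is a string of letters and not a measured binding site. The 250 bases before the start are printed for these 4 genes because each held a searched element. The printed stretches are read 5′ to 3′ along the gene, with the element in capitals. They lie at chr3:38452766-38453015 (Hspa5, plus strand), chr14:84604373-84604622 (Xbp1, plus), chr3:126795881-126796130 (Chac1, plus) and chr3:161275534-161275783 (Trib3, minus).
Hspa5: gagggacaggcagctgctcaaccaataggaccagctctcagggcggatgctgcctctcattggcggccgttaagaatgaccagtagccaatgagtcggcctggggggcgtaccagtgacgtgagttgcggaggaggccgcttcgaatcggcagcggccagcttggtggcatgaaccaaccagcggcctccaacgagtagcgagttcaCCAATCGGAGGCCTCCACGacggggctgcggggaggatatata
Xbp1: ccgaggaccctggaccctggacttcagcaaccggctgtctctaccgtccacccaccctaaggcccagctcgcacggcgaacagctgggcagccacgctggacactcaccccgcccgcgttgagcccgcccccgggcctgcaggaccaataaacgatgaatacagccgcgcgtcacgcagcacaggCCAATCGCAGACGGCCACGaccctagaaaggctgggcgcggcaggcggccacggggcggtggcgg
Chac1: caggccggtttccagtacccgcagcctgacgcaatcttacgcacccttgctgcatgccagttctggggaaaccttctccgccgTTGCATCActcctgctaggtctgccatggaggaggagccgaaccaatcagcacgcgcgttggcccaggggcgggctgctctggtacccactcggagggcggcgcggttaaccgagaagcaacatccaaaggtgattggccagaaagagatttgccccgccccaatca
Trib3: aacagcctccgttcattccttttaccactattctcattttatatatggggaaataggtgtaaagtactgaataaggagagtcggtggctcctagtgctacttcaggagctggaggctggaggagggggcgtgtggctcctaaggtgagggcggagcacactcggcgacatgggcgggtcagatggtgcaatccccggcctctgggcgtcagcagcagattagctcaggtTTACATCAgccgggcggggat

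Library totals ran from 33505706 to 42684206 estimated counts, and levels are given as CPM, that is counts in proportion to the library total after scaling over all 10 libraries. The study counts each N of primary cells as cultures from 1 mouse and does not say what an N of rat cells is. The libraries are labelled N1 and N2. No source says whether the same number in different groups marks the same culture. OL libraries held the myelin mRNA Mbp at 6224 to 15520 CPM and OPC libraries held 230.8 to 279.5, while the OPC receptor Pdgfra reached 908.1 to 1524 CPM in OPCs and 148.3 to 265.4 in OLs, as the labels say. Other glia were present too. The astrocyte gene Gfap stood at 4179 to 9708 CPM in OLs and 7.81 to 51.1 in OPCs, and the summed level of 10 microglial markers was 345.5 to 937.8 CPM in OLs and 847.7 to 1064 in OPCs. That sum hides opposite directions. In OL miR-ctl against OPC anti-miR-ctl 5 microglial markers were higher and 5 lower, while all 6 astrocyte markers were higher. In these bulk libraries a change in the share of a cell type and a change in RNA per cell cannot be told apart. The summed level of 10 interferon response genes was 1741 and 1856 CPM in OPC anti-miR-ctl, 217.2 and 254.0 in OPC anti-miR-145, and 58.45 to 83.77 in OLs.

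The OL and OPC libraries were set side by side first. Stage, medium, time after transfection and kind of oligonucleotide differed together between them and cannot be told apart. The 6 OL libraries lay above the 4 OPC libraries, with no overlap, for the transcription factors Atf3, Atf4 and Ddit3, for Trib3 and for Chac1. They lay below them for Xbp1, Sesn2 and Hspa5. Only Asns and Ddit4 overlapped. The share of all genes whose OL and OPC libraries lay apart in this way was not counted, so no trait of the pathway can be read from it. Between the control groups alone, OL miR-ctl and OPC anti-miR-ctl, the libraries did not overlap for 81.7% of the 15721 genes tested.

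Atf3, a stress-induced partner and repressor in the ATF family, had the largest log2 fold change of the 10 between the control groups. It was listed at 72.5 and 161.9 CPM in OL miR-ctl, 71.1 and 96.6 in OL miR-145, 74.4 and 106.6 in OL miR-145+miR-219, 10.7 and 9.87 in OPC anti-miR-ctl, and 10.9 and 8.72 in OPC anti-miR-145. Every OL library stood far above every OPC library, and the second OL miR-ctl library stood apart from the other five. OL miR-ctl against OPC anti-miR-ctl gave a log2 fold change of 3.50 (SE 0.41, edgeR adjusted p = 0.00157), or 11.4-fold.

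Atf4, the central transcription factor of the response, was at 271.7 and 352.4 CPM in OL miR-ctl, 253.2 and 241.2 in OL miR-145, 257.6 and 277.0 in OL miR-145+miR-219, 205.3 and 213.4 in OPC anti-miR-ctl, and 229.3 and 193.2 in OPC anti-miR-145. The OL and OPC libraries were apart but close, and the log2 fold change between the control groups was 0.57 (SE 0.14, edgeR adjusted p = 0.0189). Ddit3 encodes CHOP, the factor tied to death of stressed cells. Its levels were 56.3 and 134.3 CPM in OL miR-ctl, 63.0 and 59.5 in OL miR-145, 70.3 and 84.7 in OL miR-145+miR-219, 34.1 and 39.6 in OPC anti-miR-ctl, and 21.6 and 15.1 in OPC anti-miR-145. The lowest OL library was thus above the highest OPC library, and the log2 fold change between the controls was 1.36 (SE 0.41, edgeR adjusted p = 0.0355).

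Trib3, a pseudokinase that ATF4 and CHOP induce and that restrains ATF4 in turn, had 5.60 and 18.2 CPM in OL miR-ctl, 5.65 and 6.92 in OL miR-145, 6.55 and 11.4 in OL miR-145+miR-219, 3.70 and 3.78 in OPC anti-miR-ctl, and 1.44 and 1.14 in OPC anti-miR-145. These last were 58 and 50 counts, so counting error is larger here than for the other genes. Its difference between the control groups was 1.66 on the log2 scale (SE 0.56, edgeR adjusted p = 0.0505). Trib3 passed the threshold of 0.05 under DESeq2 (adjusted p = 0.00316), without a filter (0.0328), with at least 10 counts (0.0499), with all 5 groups fitted together (0.0206) and with the replicate number as a block (0.0393). With DESeq2's size factors in edgeR it missed the threshold (edgeR adjusted p = 0.051). Chac1, which degrades glutathione, was at 11.8 and 24.5 CPM in OL miR-ctl, 11.6 and 16.4 in OL miR-145, 14.9 and 18.2 in OL miR-145+miR-219, 10.5 and 10.6 in OPC anti-miR-ctl, and 10.0 and 8.61 in OPC anti-miR-145. Its log2 difference between the controls, 0.78 (SE 0.35), had an edgeR adjusted p of 0.110.

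Sesn2, a leucine-sensing inhibitor of the growth kinase complex mTORC1, ran the other way. Its levels were 71.3 and 98.5 CPM in OL miR-ctl, 78.5 and 87.0 in OL miR-145, 79.1 and 91.3 in OL miR-145+miR-219, 138.4 and 133.5 in OPC anti-miR-ctl, and 135.4 and 131.7 in OPC anti-miR-145. The 4 OPC libraries fell in a narrow band above all OLs, and the log2 fold change of OL miR-ctl against OPC anti-miR-ctl was -0.68 (SE 0.16, edgeR adjusted p = 0.0167). Hspa5 encodes BiP, the main chaperone of the ER lumen. It was at 559.0 and 512.0 CPM in OL miR-ctl, 544.1 and 540.2 in OL miR-145, 549.1 and 493.5 in OL miR-145+miR-219, 645.9 and 687.0 in OPC anti-miR-ctl, and 833.4 and 745.2 in OPC anti-miR-145. It too was lower in OLs, by a log2 fold change of -0.32 (SE 0.09, edgeR adjusted p = 0.0297, or 0.0616 with the replicate number as a block).

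Xbp1, whose spliced mRNA encodes an activator of chaperone and degradation genes, had 52.9 and 58.9 CPM in OL miR-ctl, 50.1 and 52.2 in OL miR-145, 52.0 and 54.6 in OL miR-145+miR-219, 64.8 and 64.2 in OPC anti-miR-ctl, and 84.4 and 75.6 in OPC anti-miR-145. The highest OL library was 1.18 times the lowest, and the control groups differed by -0.21 on the log2 scale (SE 0.09, edgeR adjusted p = 0.0915). Ddit4 encodes REDD1, an mTORC1 inhibitor that hypoxia and glucocorticoids also induce. It was at 141.8 and 117.3 CPM in OL miR-ctl, 111.4 and 92.7 in OL miR-145, 105.4 and 116.7 in OL miR-145+miR-219, 105.4 and 109.7 in OPC anti-miR-ctl, and 154.4 and 146.8 in OPC anti-miR-145. Asns, the asparagine synthetase that is a classical ATF4 target, had the smallest range of the 10 over all libraries, 0.29 on the log2(CPM + 1) scale, from 63.6 CPM in the first OL miR-ctl library to 78.2 in the second.

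**Figure D1:**
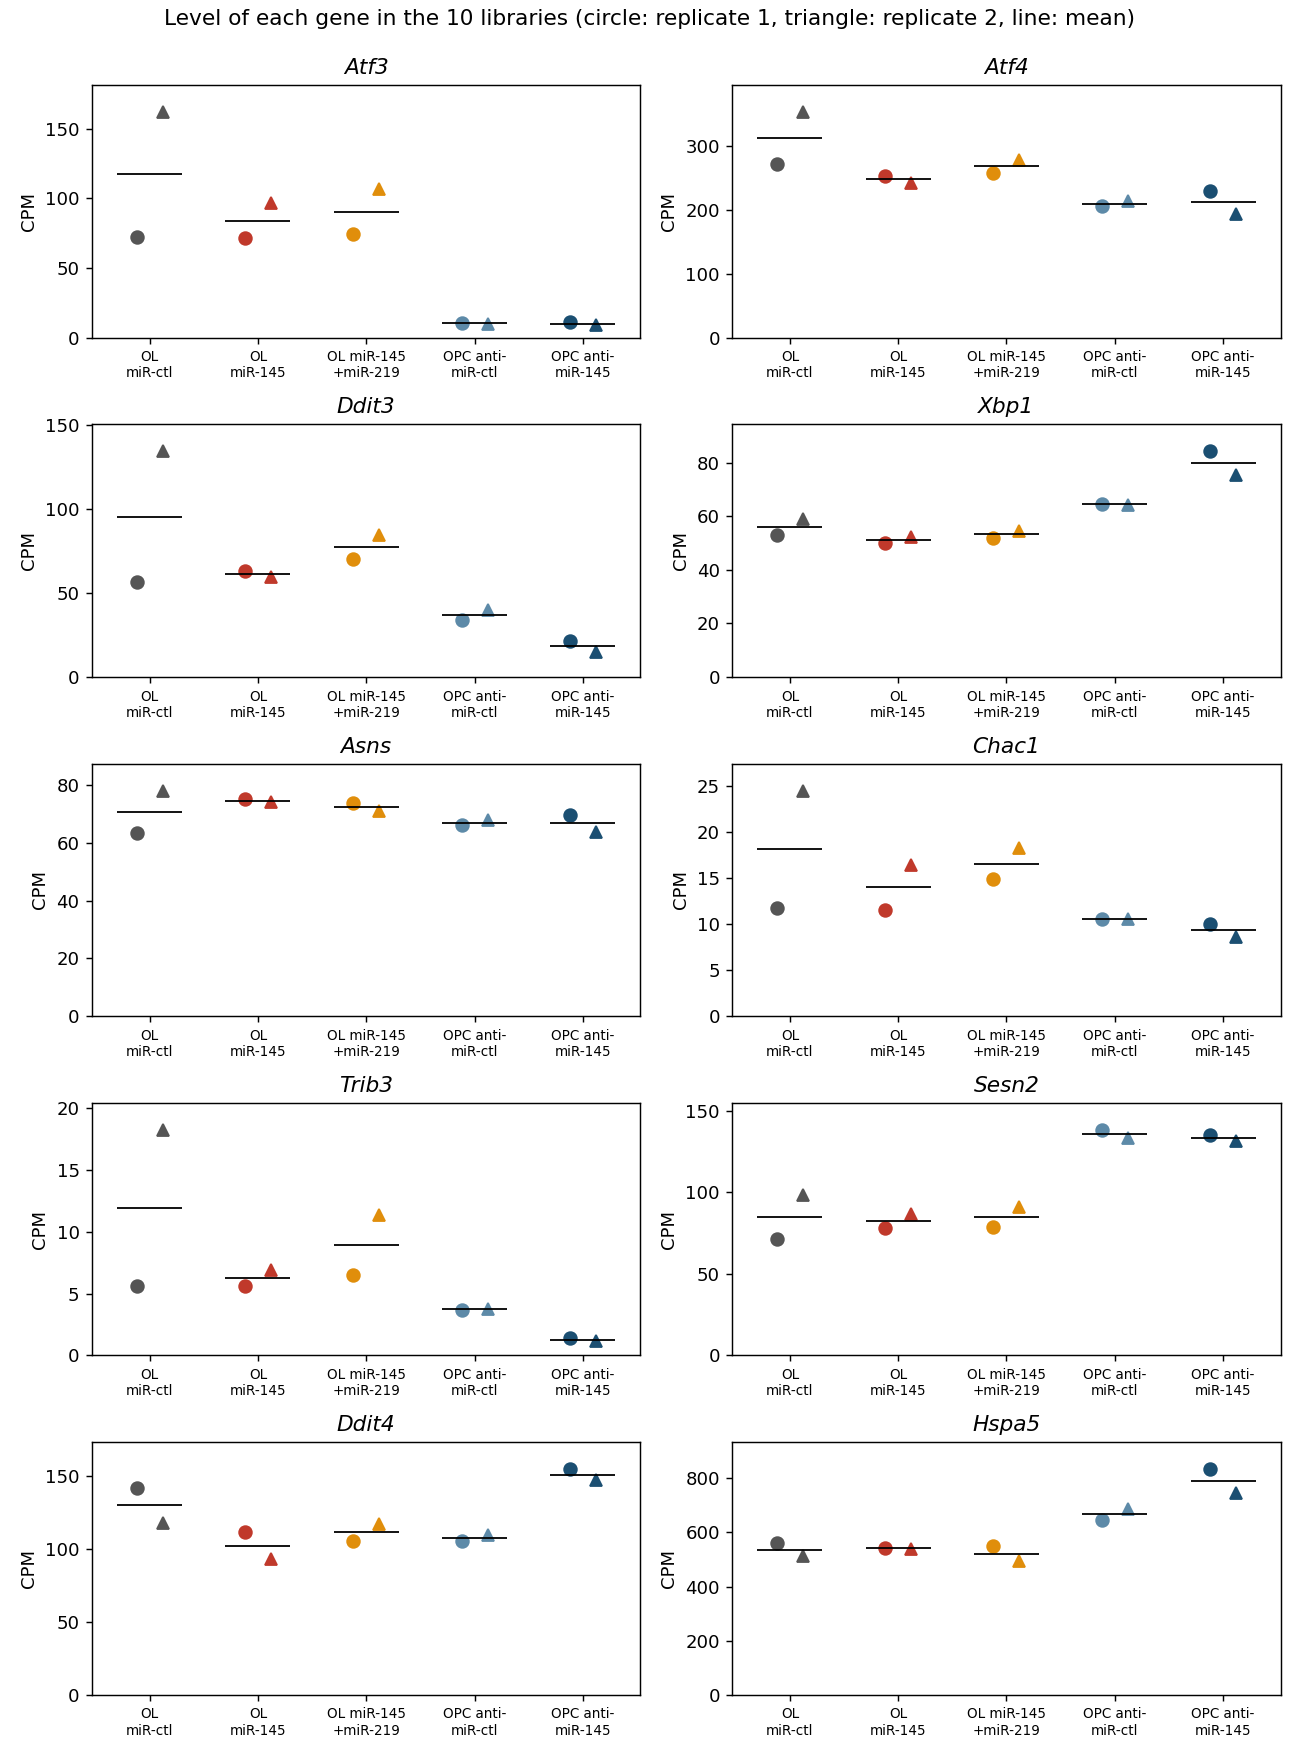
Level of each of the 10 genes in CPM (linear axis from 0), with circles for replicate 1, triangles for replicate 2 and a line for the mean of 2 libraries. Atf3, Atf4, Ddit3, Chac1 and Trib3 are higher in all 6 OL libraries than in the 4 OPC libraries, Xbp1, Sesn2 and Hspa5 are lower, and the second OL miR-ctl library is the highest of all for Atf3, Atf4, Ddit3, Asns, Chac1 and Trib3. The shares of all genes with these orders were not counted.

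Between OL miR-ctl and OPC anti-miR-ctl, 5 of the 10 genes passed an edgeR adjusted p of 0.05, 3 higher in OLs (Atf3, Atf4, Ddit3) and 2 lower (Sesn2, Hspa5). Among all 15721 genes tested 57.5% passed, 28.8% higher and 28.7% lower, so the share of the 10 was close to the background. The libraries of the groups did not overlap for 9 of the 10, against 81.7% of all genes. The median log2 fold change of the 10 was 0.42, and that of all genes 0.01. Stage, medium, time after transfection and kind of oligonucleotide differed together here and cannot be told apart. Astrocyte, microglial and interferon markers also differed, as given above, and their part in these values was not tested. With either OPC anti-miR-ctl library left out Atf3 was still called, and Atf4, Ddit3, Sesn2 and Hspa5 were not. With either OL miR-ctl library left out more members were called, the lone library then being assumed to vary like the OPC pair. The share of all genes called in these fits is not given here, so neither shift can be read as a trait of the members. Without the second OL miR-ctl library the log2 fold changes of Ddit3 and Trib3 dropped to 0.61 and 0.58 and that of Atf3 to 2.81, with their direction kept.

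Genes around the 10 in the pathway were sorted into lists by role, and their calls in the same comparison are to be read against the 28.8% of all genes that were higher and the 28.7% that were lower. Of 19 stress sensors and eIF2 factors 5 were higher and 3 lower in OL miR-ctl. Ern1, the IRE1 gene (1.23, adjusted p = 0.00342), and Atf6b (0.36, 0.0144) were higher on the log2 scale, and the double-stranded RNA kinase Eif2ak2 (-2.06, 6.4e-05) and the ER kinase Eif2ak3 (-0.77, 0.00111) were lower. Of 23 tested ATF4 target genes 4 were higher and 8 lower. The serine synthesis gene Psat1 (1.04) and Atf5 (1.83) rose, while Nupr1 (-4.96) and the cystine transporter Slc7a11 (-3.39) fell. Of 12 aminoacyl-tRNA synthetases, enzymes that load amino acids on tRNA and are also ATF4 targets, Eprs (1.57) and Aars (0.76) were higher and none was lower.

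Of 17 ER chaperones and folding enzymes 3 were higher and 6 lower, with the oxidase Ero1a (-1.02) and the disulphide isomerase Pdia6 (-0.57) lower and the cochaperones Dnajb9 (0.91) and Sil1 (0.47) higher. Of 13 genes of ER-associated degradation, which removes misfolded proteins, 6 were higher, among them Selenos (1.27) and Os9 (0.96), and 2 lower, Edem1 (-0.78) and Ube2j1 (-0.28). Of 9 p53 targets 5 were lower, among them Aen (-1.63) and Eda2r (-1.82), and Gadd45a was higher (3.56). Of 11 hypoxia-induced genes 7 were higher, including Bnip3 (1.36) and Egln3 (1.43), and Egln1 was lower (-0.67). Of 8 heat shock genes 3 were higher and 2 lower. All 7 glucocorticoid-induced genes passed, 3 higher (Mt2A 4.30, Klf9 2.21) and 4 lower (Tsc22d3 -1.35, Fkbp5 -1.39). Among 5 paralogs of the members Sesn3 was higher (1.07) and Trib2 lower (-1.30). Over all lists 67 genes were called. Fewer were with either OPC anti-miR-ctl library left out, where the share of all genes is not given.

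In OPCs the question was what blocking miR-145-5p did to the pathway, and here 4 of the 10 genes were called, in both directions. Ddit3 and Trib3 fell, and Ddit4 and Xbp1 rose. Among all 15496 genes tested 28.1% were called, 12.1% higher and 16.0% lower, so 2 of 10 in each direction was close to the background. Libraries of the groups did not overlap for 6 of the 10, 3 higher and 3 lower, against 67.8% of all genes. The median log2 fold change of the 10 was 0.0003 and that of all genes 0.005. Cell type markers differed between these groups as well. Of 10 microglial markers 5 were called higher and 4 lower, and of 6 astrocyte markers 1 was higher and 2 lower. Gfap went from 8.23 and 7.81 CPM in anti-miR-ctl to 40.7 and 51.1 in anti-miR-145. The part of these markers in the member values was not tested.

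Ddit3 dropped from 36.9 ± 3.89 to 18.3 ± 4.63 CPM (SD, n = 2), with a log2 fold change of -0.99 (SE 0.18, edgeR adjusted p = 0.00752). Trib3 dropped from 3.74 ± 0.0608 to 1.29 ± 0.215 CPM (SD, n = 2), a change of -1.52 on the log2 scale (SE 0.22, edgeR adjusted p = 0.00253). This was 2.87-fold, the largest change of the 10 here. For both genes the anti-miR-145 libraries were the lowest of all 10 libraries. They were also each other's nearest neighbour by profile among 10683 genes compared over the 10 libraries, with a mean absolute difference of 0.157 on the centred log2(CPM + 1) scale. Next to them came Osgin2 and Tnip2 for Ddit3, and Arrdc4 and Tmem140 for Trib3.

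Ddit4 went from 107.6 ± 3.04 to 150.6 ± 5.38 CPM (SD, n = 2), with a change of 0.50 on the log2 scale (SE 0.08, edgeR adjusted p = 0.00519). Xbp1 went from 64.5 ± 0.414 to 80.0 ± 6.17 CPM (SD, n = 2), a difference of 0.33 on the log2 scale (SE 0.09, edgeR adjusted p = 0.0387). For Xbp1 and Hspa5 both anti-miR-145 libraries were above every other library. Hspa5 differed by 0.26 on the log2 scale (SE 0.10), with an edgeR adjusted p of 0.0907. The gene nearest to Hspa5 by profile was Calr, the ER chaperone calreticulin (0.0344), followed by Vcp and Fbxw2.

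Atf4 itself did not pass, at 209.3 ± 5.72 and 211.3 ± 25.5 CPM (SD, n = 2; log2 fold change 0.03, SE 0.11, edgeR adjusted p = 0.863). Nor did Atf3 (-0.05), Asns (0.01), Sesn2 (-0.01) or Chac1 (-0.16), whose edgeR adjusted p ranged from 0.381 to 0.939. Thus Trib3 and Chac1, the pair with a CARE core in the promoter window, had log2 fold changes of -1.52 and -0.16. Hspa5 and Xbp1, the pair with an ER stress response element, had 0.26 and 0.33. Among all tested genes whose promoter held the CARE core, 11.5% of 234 were called higher and 16.2% lower, beside 13.0% and 16.3% of the 10725 genes with a promoter. Among 15 tested genes with the ER stress response element 1 was called higher (Xbp1) and 4 lower (Birc5, Zfand2a, Pan2 and Dnajc3, named after their values were seen).

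The 4 calls did not rest equally on each library. With the first anti-miR-ctl library left out Ddit4 and Xbp1 no longer passed, at log2 fold changes of 0.45 and 0.31. With the second left out Xbp1 was lost, at 0.30. With the second anti-miR-145 library left out Hspa5 was added, at 0.35. When all 5 groups entered a single fit, Ddit3 and Trib3 missed the threshold (edgeR adjusted p = 0.102 and 0.0959) at nearly the same fold changes.

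**Figure D2:**
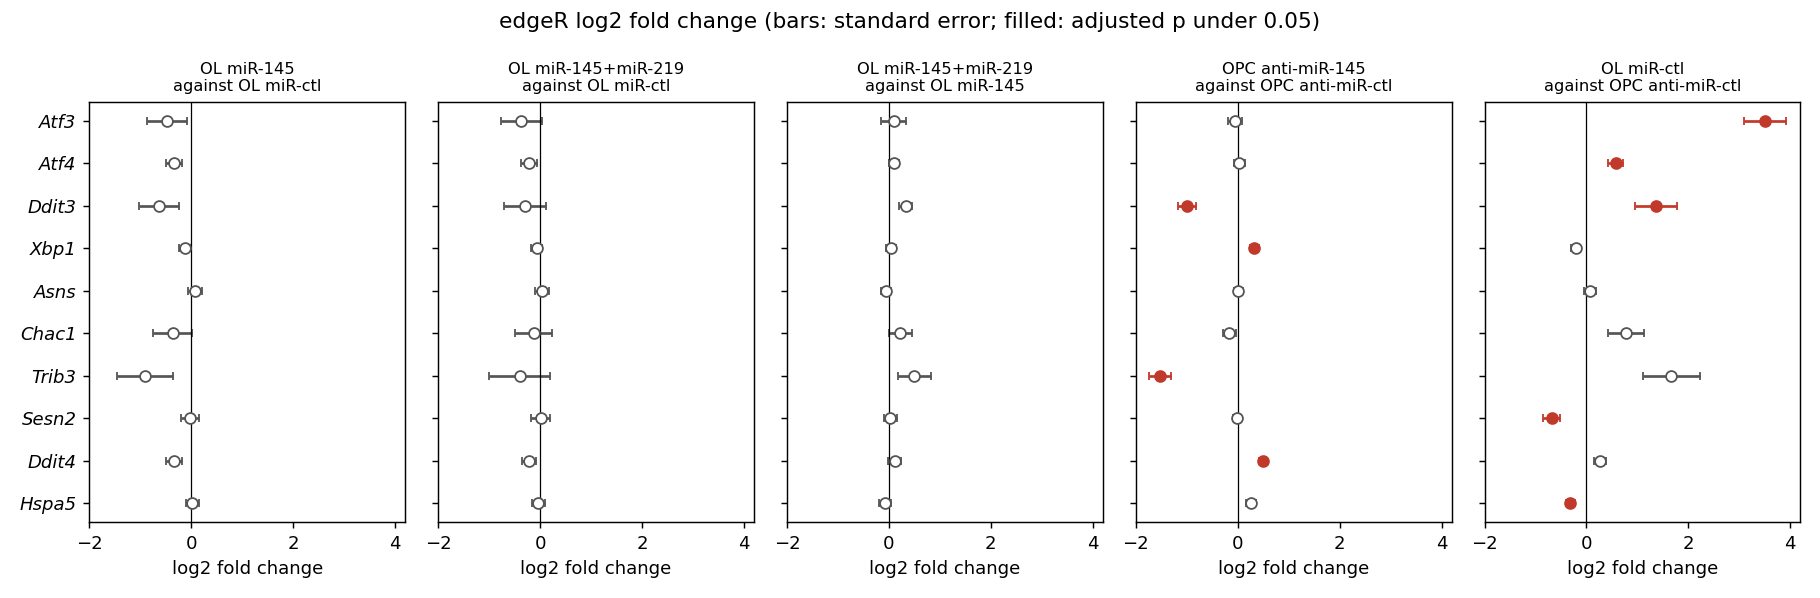
Log2 fold change of each gene (x axis) in the 5 comparisons, from edgeR with the standard error as bars; filled points passed an adjusted p of 0.05. No point is filled in the 3 OL comparisons, 4 are filled in OPC anti-miR-145 against anti-miR-ctl and 5 in OL miR-ctl against OPC anti-miR-ctl.

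The pathway around the members moved in both directions in OPCs as well. Among 19 sensors and eIF2 factors, Eif2ak2, which interferon also induces, dropped from 200.5 and 192.3 to 67.7 and 78.9 CPM (log2 fold change -1.41, edgeR adjusted p = 0.00012). It moved with the 10 interferon response genes, all 10 of which were lower with anti-miR-145 (median log2 fold change -3.36), and the part of that response in the stress gene values was not tested. Gcn1 (0.31), an activator of the amino acid sensing kinase, and the eIF2B subunit Eif2b5 (0.29) were higher. Of 24 tested ATF4 targets 5 were higher and 6 lower, with a median of -0.12. The transporter Slc7a11 (-1.86, from 38.1 and 35.8 to 8.99 and 11.2 CPM) and the transcription factor Cebpb (-1.45) fell, while the glutamine transporter Slc1a5 (1.68, from 14.7 and 15.4 to 51.1 and 43.8 CPM) and Aldh1l2 (0.93), a mitochondrial folate enzyme, rose. Of 12 aminoacyl-tRNA synthetases 11 had a positive log2 fold change but 1 passed, Lars (0.28, edgeR adjusted p = 0.0427).

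Of 17 tested ER chaperones and folding enzymes 6 were higher and 2 lower, with a median log2 fold change of 0.23, beside 12.1% and 16.0% of all genes. Hyou1, a large chaperone of the ER lumen, rose from 168.0 and 172.8 to 241.2 and 231.8 CPM (0.49, SE 0.08, edgeR adjusted p = 0.00513), and Pdia6 rose by 0.44 on the log2 scale. Ero1a (-0.92) and the cochaperone Dnajc3 (-0.29) were lower. Fewer genes of the list were called with either anti-miR-ctl library left out, and more without the second anti-miR-145 library. The share of all genes called in those fits is not given here, so this shift cannot be read as a trait of the list. Of 13 ER-associated degradation genes Edem2 (0.45) and Os9 (0.36) were higher and Edem1 (-0.50) and Ube2j1 (-0.43) lower.

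Ddit4 can also be induced outside the stress pathway, so the hypoxia and glucocorticoid lists were set beside it. Of 11 hypoxia-induced genes Egln3 (0.89) and Adm (1.96) were higher and Ndrg1 (-0.92) and Slc2a1 (-0.84) lower in OPC anti-miR-145. Of 7 glucocorticoid-induced genes only Klf9 (1.21) was higher and 5 were lower, among them Mt2A (-2.37) and Per1 (-0.67) (16.0% of all genes were lower). Fewer of the 7 were called with the first anti-miR-ctl library left out. Among 9 p53 targets Bax was higher (0.45), among 8 heat shock genes Bag3 (0.50) and Hsp90ab1 (0.36) were among 3 higher and Hspa8 (-0.36) was lower, and among 5 paralogs Sesn1 was higher (0.41). In all, 43 list genes were called, beside 28.1% of all genes. Fewer were called without either anti-miR-ctl library and more without the second anti-miR-145 library. The share of all genes in those fits is not given here.

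**Figure D3:**
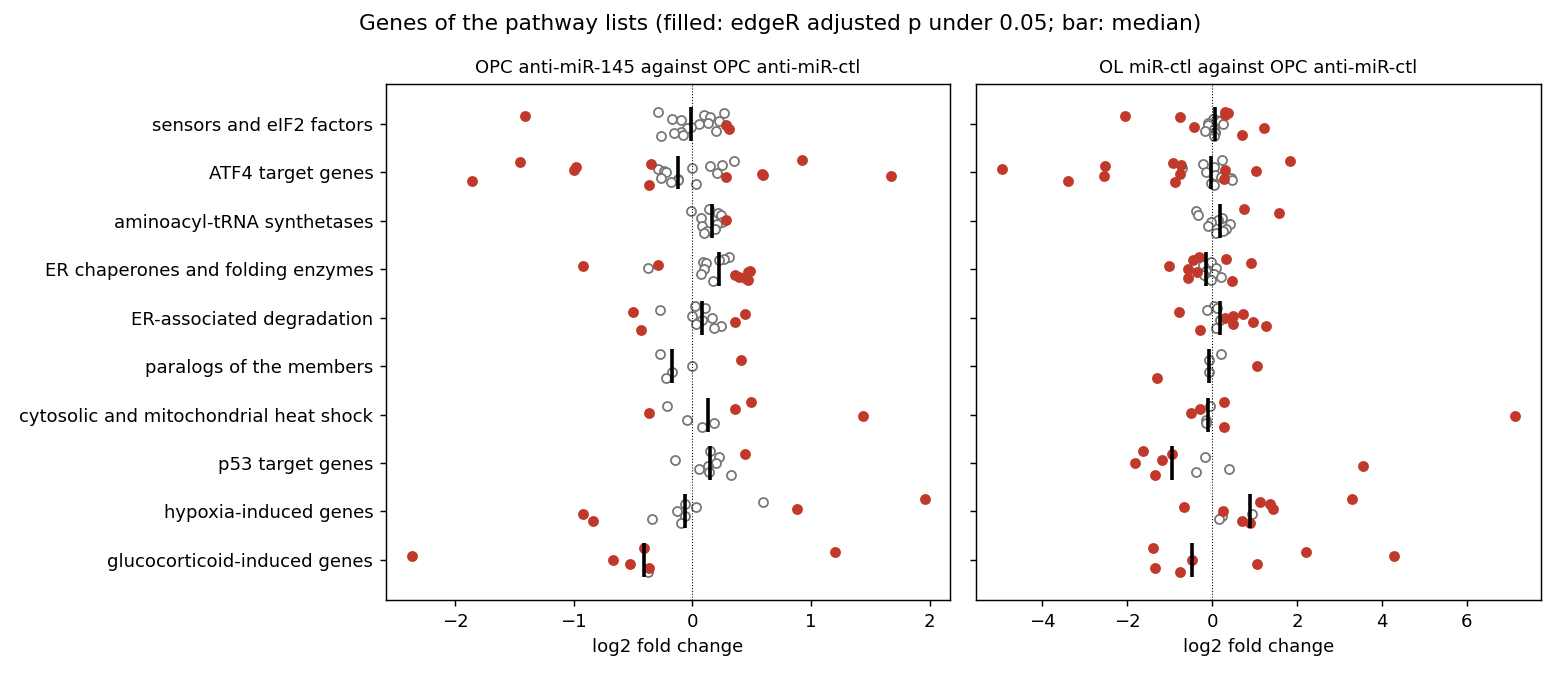
Log2 fold change (x axis) of every tested gene of the pathway lists in OPC anti-miR-145 against anti-miR-ctl and in OL miR-ctl against OPC anti-miR-ctl; filled points passed an edgeR adjusted p of 0.05 and bars mark the list's median. ER chaperones have 6 filled points above 0 and 2 below on the left and 3 above and 6 below on the right.

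In OLs the mimics were compared with miR-ctl to ask what raised miR-145-5p did at DD5. None of the 10 genes was called in miR-145 against miR-ctl, and neither was any of the 15461 genes tested (0%). The smallest edgeR adjusted p of all genes was 0.158, while the study's own DESeq2 analysis reported genes changed in both directions. At an unadjusted p under 0.05 there were 0 of the 10, against 13.4% of all genes, and DESeq2 called 0 of the 10, against 4.37% of all genes. Of the 10 fold changes 8 were negative, with a median of -0.33 beside -0.01 for all genes. The most negative were Trib3 (-0.91, SE 0.55, edgeR adjusted p = 0.511), Ddit3 (-0.63, SE 0.39, edgeR adjusted p = 0.526) and Atf3 (-0.48, SE 0.39, edgeR adjusted p = 0.626). The libraries did not overlap for Atf4, Xbp1 and Ddit4, all lower with miR-145, that is for 3 of 10 against 47.3% of all genes. Their log2 fold changes were -0.33, -0.12 and -0.34. With the replicate number as a block 4 of the 10 were called, all lower (Atf3, Ddit3, Trib3 and Ddit4), against 14.7% of all genes, 4.7% lower. For 5 of the 10 genes both miR-145 libraries lay between the 2 miR-ctl libraries. The share of all genes that did so was not counted.

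Of the 8 negative values 5 turned positive without the second miR-ctl library. That miR-ctl library was the highest of all 10 libraries for 6 genes, Atf3, Atf4, Ddit3, Asns, Chac1 and Trib3. How many of all genes were highest in that library was not counted. The level in it was 2.79 times the median of the other 5 OL libraries for Trib3, 2.18 times for Atf3, 2.13 times for Ddit3, 1.65 times for Chac1 and 1.37 times for Atf4, but 1.06 times for Asns and 0.941 times for Hspa5. Against the first miR-ctl library the log2 difference was 1.70 for Trib3, 1.25 for Ddit3, 1.16 for Atf3 and 1.06 for Chac1, higher than the same difference of 99.88%, 99.45%, 99.3% and 99.09% of the 10914 genes with at least 5 CPM in this group. For Sesn2 it was 0.47 (above 94.63% of these genes), for Atf4 0.38 (92.18%) and for Asns 0.30 (89.19%). Xbp1 had 0.15 (76.97%), Hspa5 -0.13 (29.11%) and Ddit4 -0.27 (14.78%).

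The rest of the pathway was not uniformly raised in that library. All 12 aminoacyl-tRNA synthetases were higher than in the first library, with a median log2 difference of 0.42, and of 9 p53 targets 6 were, with a median of 0.42. The 18 ATF4 targets with at least 5 CPM had a median of 0.05, the 19 sensors and eIF2 factors 0.05, the 17 ER chaperones -0.03 and the 8 heat shock genes -0.06. The OL markers differed as well. Their summed level was 16300 CPM in the first and 30320 in the second library, and the 4 OPC markers summed to 1675 and 1155 CPM. The second library also had the higher OL marker sum in the miR-145 pair (15130 and 24250 CPM) and in the miR-145+miR-219 pair (18940 and 33330 CPM). In the miR-145 pair the log2 difference of the second from the first library was 0.51 for Chac1, 0.44 for Atf3, 0.29 for Trib3, -0.07 for Atf4 and -0.08 for Ddit3. In the miR-145+miR-219 pair it was 0.80 for Trib3, 0.52 for Atf3, 0.29 for Chac1, 0.27 for Ddit3 and 0.11 for Atf4. The part of OL maturity in these values was not tested.

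Without the second miR-ctl library 4 of the 10 fold changes of miR-145 against miR-ctl were negative and 6 positive, with a median of 0.14. Trib3 then stood at 0.17, Ddit3 at 0.12, Atf3 at 0.21, Chac1 at 0.25 and Sesn2 at 0.21. Without the first library 9 were negative, with Trib3 at -1.53 and Ddit3 at -1.12. Atf4 (-0.14), Xbp1 (-0.05) and Ddit4 (-0.48) kept their sign without the second library, at smaller size for Atf4 and Xbp1. The direction in which miR-145 moved Atf3, Ddit3, Chac1, Trib3 and Sesn2 in OLs could not be given from 2 control libraries.

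**Figure D4:**
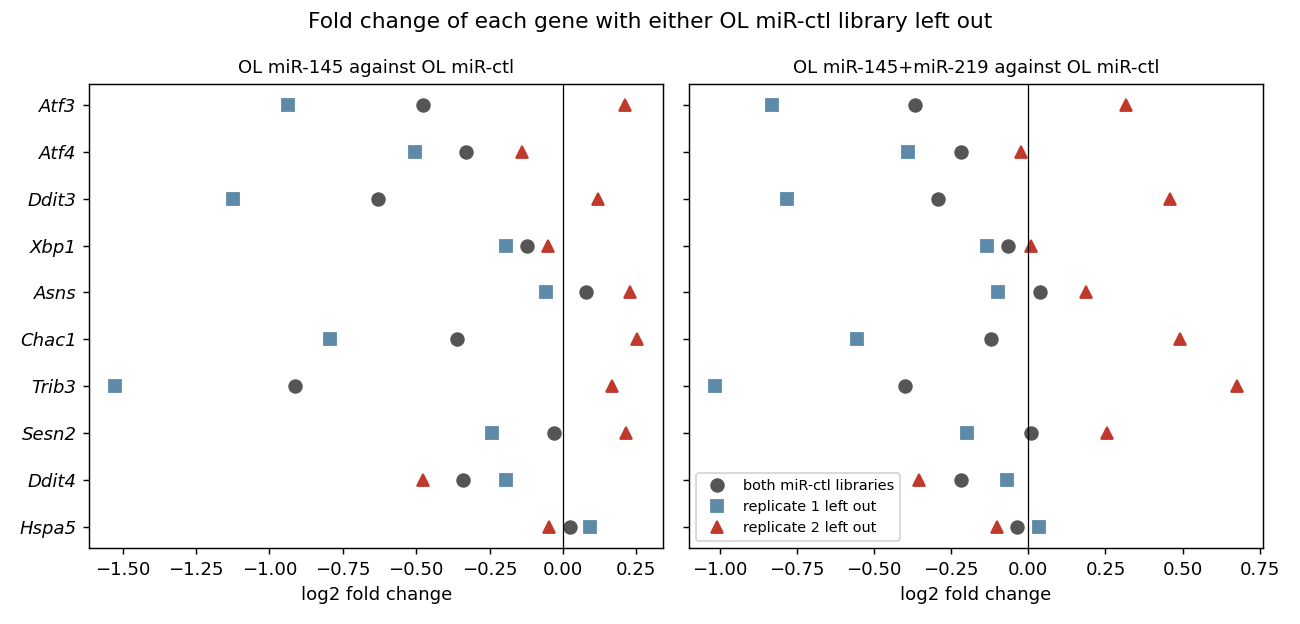
Log2 fold change (x axis) of each gene in OL miR-145 and OL miR-145+miR-219 against OL miR-ctl, with both control libraries (circles), without the first (squares) and without the second (triangles). Trib3, Ddit3, Atf3 and Chac1 lie left of 0 with both libraries and right of 0 without the second; Ddit4 stays left of 0 in all fits.

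The same control library served miR-145+miR-219 against miR-ctl, so this comparison is not independent of the one before. None of the 10 was called, nor any of 15436 genes (0%), and 0 of the 10 had an unadjusted p under 0.05, against 6.19% of all genes; DESeq2 called 0 of the 10 and 0.687% of all genes. The libraries were apart for Ddit4 alone, which was lower (log2 fold change -0.22, SE 0.14, edgeR adjusted p = 0.832), against 36.7% of all genes. Trib3 was at -0.40 (SE 0.60), Atf3 at -0.37 (SE 0.41) and Ddit3 at -0.29 (SE 0.41). Both mimic libraries lay between the control libraries for 6 of the 10 genes, a count without its share over all genes. Without the second miR-ctl library Trib3 was at 0.68, Chac1 at 0.49, Ddit3 at 0.46 and Atf3 at 0.32, and 7 of the 10 were positive.

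The comparison of miR-145+miR-219 with miR-145, which used no miR-ctl library, asked what miR-219 added. A difference in total dose of oligonucleotide, if there was one, cannot be told apart from miR-219 here. None of the 10 was called, nor any of 15501 genes (0%), with 0 of the 10 and 1.47% of all genes at an unadjusted p under 0.05, and 0 of the 10 and 0.0581% of all genes by DESeq2. Ddit3 was higher in both combined libraries, by 0.33 on the log2 scale (SE 0.13, unadjusted p = 0.0551), and Atf4 by 0.10 (SE 0.11). Asns was lower in both (-0.05, SE 0.09). These 3 were the genes without overlap, against 24.8% of all genes. A p that misses the threshold does not show that the groups were alike, and the log2 standard errors of Trib3 (0.32) and Atf3 (0.25) were wide.

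No gene of any pathway list was called by edgeR in the 3 OL comparisons. In miR-145 against miR-ctl DESeq2 called 6 of the 125 matched list genes, beside 4.37% of all genes. In miR-145 against miR-ctl all 12 aminoacyl-tRNA synthetases had negative log2 fold changes (median -0.17, 0 at an unadjusted p under 0.05), and in miR-145+miR-219 against miR-145 all 12 were positive (median 0.09). The first of these rested on the same control libraries as the members, and its second library had the higher synthetase levels. The 17 ER chaperones had medians of -0.03, -0.01 and -0.02 in the 3 comparisons. Astrocyte markers were higher with miR-145, 6 of 6, at 12020 and 8250 summed CPM against 5820 and 4982 in miR-ctl. All 10 microglial markers were higher too (median log2 fold change 0.67), but their sums were 369.6 and 937.8 CPM against 378.0 and 566.3. The 3 tested fibroblast or mural markers were also higher (median 2.57). Of these Col1a1 stood at 1.76 and 16.4 CPM with miR-145, against 0.93 and 1.17 in miR-ctl. The part of these markers in the OL values was not tested.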

How the data were processed

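RNA of 10 rat primary cell libraries was analysed, grouped by their titles. The authors assigned stranded mRNA reads to GENCODE Rnor6.0 transcripts with Salmon 0.12.0, summarised them per gene with tximport and deposited estimated counts, not normalized; between 16.0% and 17.4% of a library's values were not whole, and counts were rounded. Their own DESeq2 table of OL miR-145 against OL miR-ctl (means, fold changes, p-values) was used for gene symbols only.

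Each of 5 comparisons was fitted on its 4 libraries with edgeR 4.0.16 (TMM, glmQLFit, glmQLFTest; R 4.3.3) keeping genes that reached 5 counts in 2 or more of them, with Benjamini-Hochberg adjustment over all genes tested and a threshold of 0.05. The standard error is the log2 fold change over the square root of F. The fit was run on simulated libraries with planted changes, where the direction of the larger ones was checked. That simulation drew replicates independently and does not speak to an outlying library. Alternatives were DESeq2 1.42.0, its size factors, no filter, a minimum of 10 counts, 1 fit over the 5 groups, a replicate block, and each library left out. An exact permutation test of 2 against 2 cannot go below p = 0.333 and was not used. Tables used Python 3.11.15, pandas 2.3.3 and matplotlib 3.10.9.

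The members and gene lists were chosen with earlier results of these data known. All members are named in each group. Of each list and comparison up to 2 tested genes of smallest p in each direction are named, and up to 3 genes nearest in profile among genes with at least 10 CPM in 2 libraries. Library totals were 33505706 or more; with only 2 replicates a group, errors are themselves imprecise. The treatment tag of the OL miR-145 libraries names miR-219 too, against their titles, which were followed. Of 135 list entries 125 distinct genes were matched; the others were not analysed here. Coordinates are GRCr8, which is not the build of the counts.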

Additional observations from a re-analysis of the deposited data

How the results depend on the processing

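Of 50 pairs of a member and a comparison, 25 changed sign with some library left out, none of them called, and 2 under another alternative. The calls of members kept their count within 1.5 times in the other comparisons and settings run, except as follows. With all 5 groups in a single fit 2 members and 27 pathway list genes were called in OPC anti-miR-145 against anti-miR-ctl, in place of 4 and 43. There Sesn2 turned to 0.0032, and Asns to -0.0043 without a filter and -0.010 with at least 10 counts. DESeq2 called 6 pathway list genes in OL miR-145 against miR-ctl, in place of 0, beside 4.37% of all genes. Leaving out a library gave 2 to 5 members and 17 to 76 list genes in the OPC comparison, and 1 to 8 members and 34 to 90 list genes in OL miR-ctl against OPC anti-miR-ctl. A lone library was assumed to vary like the other group. The cause of these shifts was not tested. Trib3 had the fewest counts per library, 50 to 594, which limits its precision.

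Replicate numbers are shared by the groups, but no source says that they mark a shared culture. Deviations of same-numbered libraries correlated at 0.23, 0.23 and 0.42 in the 3 OL comparisons, -0.07 in the OPC comparison and 0.03 between stages. With the replicate number as a block, 4 members were called in OL miR-145 against miR-ctl, all lower (Atf3 -0.38, Ddit3 -0.51, Trib3 -0.71 and Ddit4 -0.34). Of the 125 matched list genes 18 were called there, beside 14.7% of all genes. With both mimics 2 were called against miR-ctl and 3 against miR-145, where the share of all genes is not given. All genes called in OL miR-145 against miR-ctl went from 0 to 2272 (14.7% of all genes), and to 649 (4.37%) by DESeq2. In OPCs 3 members were called with the block, Xbp1 being lost (adjusted p = 0.0678).

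With each library left out in turn, log2 fold changes that changed sign spanned these ranges. In OL miR-145 against miR-ctl Atf3 ran from -0.94 to 0.21, Ddit3 from -1.12 to 0.12, Asns from -0.06 to 0.23, Chac1 from -0.79 to 0.25, Trib3 from -1.53 to 0.17, Sesn2 from -0.24 to 0.21 and Hspa5 from -0.05 to 0.09. With both mimics against miR-ctl Atf3 ran from -0.83 to 0.32, Ddit3 from -0.78 to 0.46, Xbp1 from -0.13 to 0.0086, Asns from -0.10 to 0.19, Chac1 from -0.55 to 0.49, Trib3 from -1.02 to 0.68, Sesn2 from -0.20 to 0.25 and Hspa5 from -0.11 to 0.03. With both mimics against miR-145 alone Atf3 ran from -0.19 to 0.35, Chac1 from -0.0097 to 0.52, Sesn2 from -0.08 to 0.13, Ddit4 from -0.00086 to 0.24 and Hspa5 from -0.14 to 0.0052. In OPCs Atf3 ran from -0.24 to 0.12, Atf4 from -0.11 to 0.16, Asns from -0.07 to 0.08 and Sesn2 from -0.05 to 0.02. Between stages Asns ran from -0.08 to 0.22.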

Other observations

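By profile over the 10 libraries (each gene centred on its mean of log2(CPM + 1), among 10683 genes), the genes nearest to Atf3 were Tprn, Psen2 and Plekha1, with mean absolute differences of 0.127 to 0.136. Nearest to Atf4 were Ssu72, Supt4h1 and Tmem165 (0.0600 to 0.0626), to Xbp1 Rrp12, Rnf41 and Trmt112 (0.0210 to 0.0397), and to Sesn2 Mfsd10, Fchsd1 and Nup188 (0.0646 to 0.0732). Ddit4 was nearest to Atp5md, Btd and Ier5 (0.0601 to 0.0695), Chac1 to Rhbdd1, Galnt3 and Rassf8 (0.0968 to 0.116), and Asns to Dhrs7b, Tmem242 and Gid8 (0.0395 to 0.0429). None of these genes was on the pathway lists.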
